A study of Homo sapiens with 8 samples.

Results

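The insulin-like growth factor (IGF) and insulin receptor axis was examined through 8 genes, taken by their symbols from the deposited gene table: the receptors IGF1R, INSR and IGF2R, the ligands IGF1 and IGF2, and the adaptors IRS1, IRS2 and GRB10. All 8 were found among the 18564 genes of the table. The cells were LP-1, an established human myeloma line that carries t(4;14). The study compared the wild-type (WT) line with its bortezomib-resistant (BR) counterpart, which the labels describe as kept with the proteasome inhibitor bortezomib for 2 months. Each line was given vehicle (DMSO in the sample titles, with the WT vehicle libraries also labelled untreated) or 25 nM of SI-2, an inhibitor of the coactivator SRC-3, for 24 hours. All cells were grown in RPMI-1640 with 10% fetal bovine serum, which itself carries IGFs. There were 4 conditions of 2 libraries each, named here WT vehicle, WT SI-2, BR vehicle and BR SI-2, each followed by the replicate number of its label. The BR libraries all came from 1 resistant line, so that resistance and any other divergence between the lines cannot be told apart. The labels do not say whether the 2 libraries of a condition came from separate cultures, and p-values then measure only the spread between these libraries.

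IGF1 and insulin bind receptor tyrosine kinases, IGF1R and INSR, which phosphorylate the docking proteins IRS1 and IRS2 and so switch on PI3K, AKT and mTOR as well as RAS and ERK. IGF2R has no kinase and carries IGF2 and mannose 6-phosphate-tagged enzymes to lysosomes, and GRB10 binds the active receptors and restrains them. In myeloma, IGF1 from the bone marrow is a well-known survival and growth factor for the malignant plasma cells.

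Each library held between 17997771 and 18570027 estimated counts. All 10 markers of plasma cells and t(4;14) myeloma were detected in every library, although SLAMF7 was at only 0.862 to 1.53 CPM (counts scaled to a common library size). NCOA3, which codes for SRC-3, showed a fitted log2 fold change of 0.05 between the lines (SE 0.129, adjusted p = 0.884, edgeR). The library BR SI-2 2 stood apart from the other 7. The summed level of 7 stromal cell markers was 131 CPM there against 0.389 to 1.58 CPM elsewhere, and all 7 markers were at their highest in it, while 1 to 4 of the 7 were at 0 in each of the other libraries. COL1A1 and COL3A1, 2 fibrillar collagens, were at 53.7 and 51.9 CPM in this library and below 0.35 CPM in the others. Its macrophage markers summed to 7.78 CPM against 5.13 to 7.01 CPM, and its T cell markers to 1.65 CPM against 0.401 to 1.17 CPM. In BR SI-2 2, 73 genes reached 2 CPM at 10 or more times the level of any other library, whereas the other libraries had 0 or 1 such gene.

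Levels between genes were compared as FPKM, in which the authors scaled the counts to transcript length and sequencing depth. Among the 8 genes, the most abundant transcripts were those of a clearance receptor and an inhibitory adaptor. IGF2R came first at 29.1 ± 4.19 FPKM and GRB10 second at 22.8 ± 3.70 FPKM (mean ± SD, n = 8). The ranges of these genes overlapped, and IGF2R was the higher of the 2 in 7 of 8 libraries. IGF1R followed at 11.3 ± 1.88 FPKM, INSR at 10.7 ± 1.48 FPKM and IRS1 at 8.35 ± 1.57 FPKM. GRB10 was above IGF1R in all 8 libraries without overlap of their ranges. IGF1R exceeded INSR in only 6 of 8 libraries, and their order is not beyond the spread, while INSR exceeded IRS1 in all 8 libraries with overlapping ranges. IRS2, at 3.01 ± 0.835 FPKM, lay below IRS1 without overlap, and IGF1, at 0.710 ± 0.242 FPKM, lay below IRS2 without overlap. IGF2 was last, being at or near 0 in all but 1 library.

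**Figure D1:**
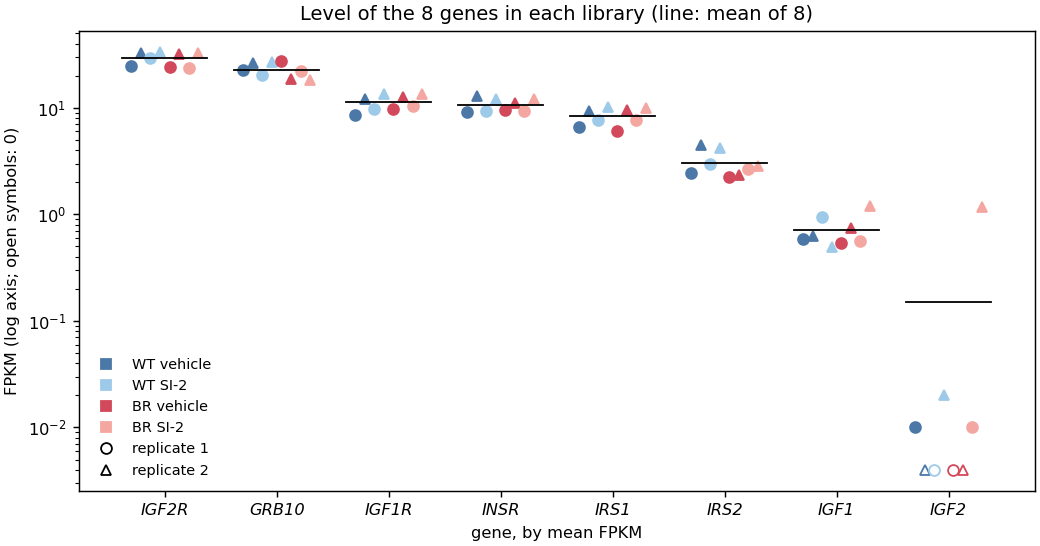
FPKM (log axis) of the 8 genes in each of the 8 libraries, coloured by condition, with circles for replicate 1, triangles for replicate 2 and a line at the mean of 8; open symbols at the bottom mark values of 0. IGF2R and GRB10 lie above 18 FPKM in every library, and IGF2 is at 1.17 FPKM in BR SI-2 2 and at most 0.02 FPKM elsewhere.

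Differences between conditions were tested on the estimated counts with edgeR's quasi-likelihood test over all genes that passed a filter on low counts, and a gene was called at an adjusted p under 0.05 (Benjamini-Hochberg). IGF2 was removed by the filter, and the other 7 genes were tested. In BR against WT with 4 libraries each, 0 of the 7 were called, where 49 of 13520 genes were called in all (0.362%), 15 of them higher in BR and 34 lower. At an unadjusted p under 0.05, 1 of the 7, IRS2, passed, against a background of 14.4% of all genes. For none of the 7 did the BR and WT libraries separate without overlap, whereas 3.79% of all genes were higher in every BR library than in every WT library and 4.36% were lower. The median log2 fold change of the 7 genes was -0.07 and that of all genes tested was 0.00416. Without BR SI-2 2, again 0 of the 7 were called, against 32 genes in all, and all 7 fitted values were then below 0 with a median of -0.12. In bulk RNA, fewer cells of a type and less RNA per cell cannot be told apart.

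IGF1R, the main receptor for IGF1, did not differ detectably between the lines. Its level in WT was 108 and 148 CPM under vehicle and 112 and 165 CPM under SI-2, and in BR it was 120 and 150 CPM under vehicle and 126 and 153 CPM under SI-2, in the order of the replicates. In each condition the replicate 2 library was the higher, and the spread within a condition was wider than any difference between conditions. The fitted fold of BR over WT was 1.03, with a 95% interval from 0.819 to 1.30 (adjusted p = 0.911, edgeR). A change beyond about 1.3-fold lay outside this interval, which pools the vehicle and SI-2 libraries of each line. In the vehicle libraries alone, the fold was 1.055 with an interval from 0.723 to 1.54 (adjusted p = 0.984, edgeR). That wider interval included a 1.3-fold change.

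INSR, the insulin receptor, was likewise not called. Its values were 89.0 and 122 CPM in WT vehicle, 88.1 and 116 CPM in WT SI-2, 93.4 and 102 CPM in BR vehicle and 90.6 and 108 CPM in BR SI-2. The lines overlapped throughout, with a fold of BR over WT of 0.951 and an interval from 0.782 to 1.16 (adjusted p = 0.815, edgeR). The ratio of IGF1R to INSR FPKM was 1.09 ± 0.0490 in BR and 1.01 ± 0.0855 in WT (n = 4 each). This difference did not hold up in an exact two-sided permutation test (p = 0.2, adjusted p = 0.344 over 6 ratio tests, smallest possible p = 0.0286).

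INSR is made in 2 forms that differ by a 36-base exon, exon 11 of 22 in the long form (GRCh38 chr19:7150497-7150532, minus strand), which lies within the coding sequence. The short form, known as A, binds IGF2 as well as insulin, whereas the long form, known as B, is selective for insulin. The RNA sequence around this exon is shown because the split between the forms rests on reads across it; the exon is in capitals and the 18 bases on each side, shared by both forms, are in lower case (GENCODE v29 transcripts matched to the RefSeq entries).
INSR long form, NM_000208.3: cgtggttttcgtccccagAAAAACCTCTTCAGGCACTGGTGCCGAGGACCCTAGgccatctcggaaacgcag
INSR short form, NM_001079817.2: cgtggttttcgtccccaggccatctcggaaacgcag

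The short form carried most of the INSR signal in every library, with 1039 to 1961 estimated counts. The long form was estimated at 0 in 5 libraries, namely both WT vehicle libraries, WT SI-2 2, BR vehicle 1 and BR SI-2 1. It was estimated at 102 counts in WT SI-2 1, 288 in BR vehicle 2 and 88.3 in BR SI-2 2, which made 6.35%, 18.04% and 5.71% of both forms. In the libraries at 0, 3 counts would have been 0.153% to 0.289% of the short-form counts. That share is not a detection limit for the long form, since most of those counts come from reads that fit both forms. The mean share was 5.94 ± 8.51% in BR and 1.59 ± 3.17% in WT (n = 4 each; exact permutation test, two-sided, p = 0.714, adjusted p = 1 over 2 tests). Between SI-2 and vehicle it was 3.01 ± 3.49% and 4.51 ± 9.02% (exact permutation p = 1, adjusted p = 1). The widest gap lay within a condition, between the BR vehicle libraries, while both WT vehicle libraries were at 0. The difference by line, 4.35 percentage points, was 0.316 points without BR vehicle 2 and 6.33 points without BR vehicle 1. The effective lengths implied for the forms nearly coincided, at 9437 to 9448 bases for the short form and 9466 to 9533 bases for the long form, so that few reads can separate them. A further 2 predicted INSR transcripts in the table took up to 33.6% of the gene's counts and were not placed with either form. For IGF1R, the share of its main curated transcript, NM_000875.4, ranged from 26.8% to 61.2% of the gene's counts between libraries.

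IGF2R was the most abundant of the receptors. Its values were 361 and 472 CPM in WT vehicle, 419 and 481 CPM in WT SI-2, 353 and 443 CPM in BR vehicle and 345 and 436 CPM in BR SI-2. The lines again overlapped, and the fold of BR over WT was 0.910 with an interval from 0.752 to 1.10 (adjusted p = 0.638, edgeR). The FPKM ratio of IGF2R to IGF1R was 2.42 ± 0.106 in BR and 2.79 ± 0.251 in WT (exact permutation p = 0.0571, adjusted p = 0.171 over 6 ratio tests).

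IGF1, the ligand, was measured at low counts in LP-1. WT vehicle held 61.1 and 64.2 estimated counts and WT SI-2 held 109 and 56.3. BR vehicle held 61.9 and 80.5 estimated counts and BR SI-2 held 64.4 and 134. The 2 highest libraries were WT SI-2 1 and BR SI-2 2, and in both lines the other SI-2 library was among the vehicle values or below them. The log2 fold change of BR over WT was 0.18 (SE 0.278, adjusted p = 0.783, edgeR) and turned to -0.10 without BR SI-2 2. That of SI-2 over vehicle was 0.43 in BR and 0.38 in WT (SE 0.393 and 0.399, adjusted p = 1 for each, edgeR), and it turned to -0.15 in BR without BR SI-2 2 and to -0.17 in WT without WT SI-2 1.

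IGF2, a fetal growth factor that many tumours express again, was almost absent from 7 libraries. It had 1 estimated count in WT vehicle 1, 2 in WT SI-2 2 and 1 in BR SI-2 1, and 0 in WT vehicle 2, WT SI-2 1 and both BR vehicle libraries. BR SI-2 2 held 100 counts, or 5.20 CPM. The gene was therefore present in 1 of the 2 BR SI-2 libraries, the library that also held the stromal markers, and the part of those cells or transcripts in this value was not tested. Other secreted genes of the axis showed the same distribution. IGFBP2, an IGF carrier protein, was at 6.92 CPM in BR SI-2 2 and had 0 counts in the other 7 libraries. IGFBP5, also a carrier, was at 2.81 CPM against at most 0.165 CPM, and STC1, a secreted inhibitor of the proteases that cut IGFBP4, at 3.69 CPM against at most 0.111 CPM. IGFBP4 itself was at 11.7 CPM there against 0.0569 to 0.822 CPM elsewhere. In the 7 other libraries IGFBP4 was higher in every BR library (0.678, 0.796 and 0.822 CPM) than in every WT library (0.0569 to 0.612 CPM). This rests on few counts, 12, 15 and 15 in BR against 1 to 11 in WT. The log2 fold change of IGFBP4 between the lines was 3.44 with all libraries (adjusted p = 0.214, edgeR) and 1.24 without BR SI-2 2.

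**Figure D2:**
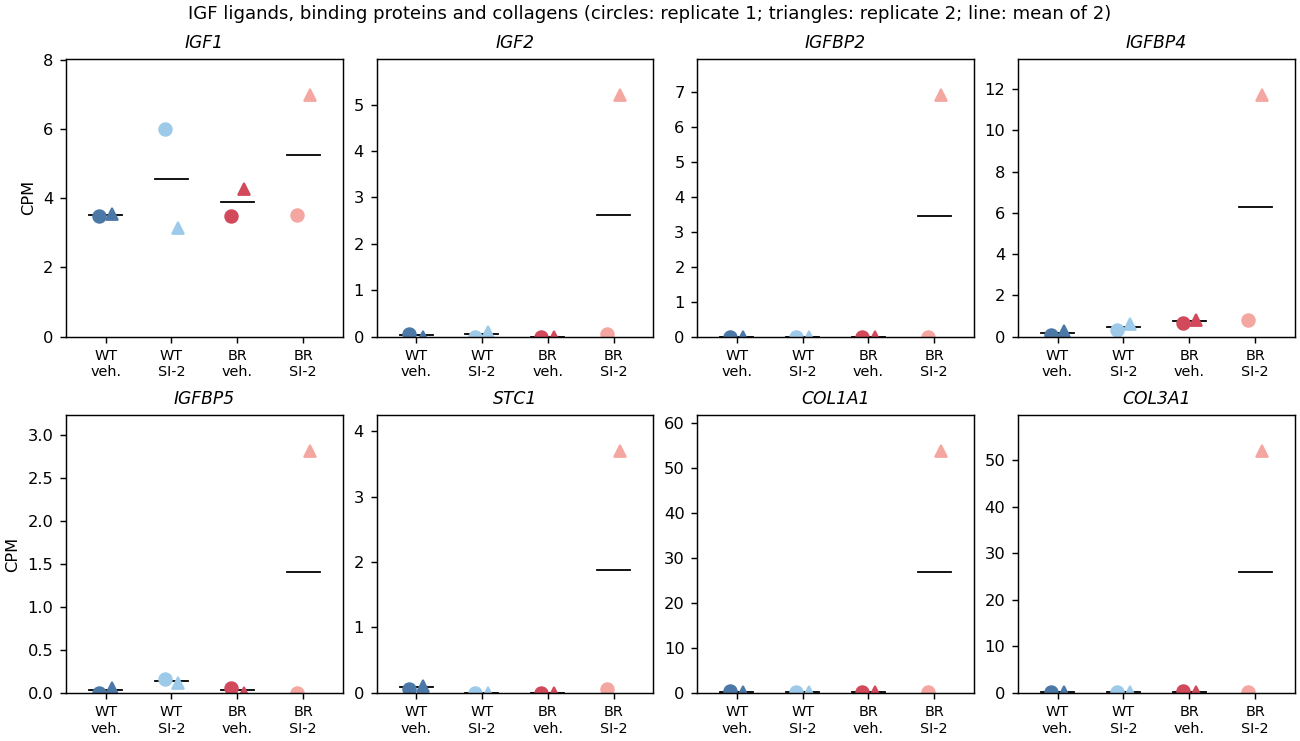
CPM of the ligands IGF1 and IGF2, of the secreted genes IGFBP2, IGFBP4, IGFBP5 and STC1 and of the collagens COL1A1 and COL3A1 by condition, with circles for replicate 1, triangles for replicate 2 and a line at the mean of 2. The BR SI-2 2 triangle is the highest point in every panel; for IGF2 it is at 5.20 CPM with all other points at or below 0.111 CPM, and for IGF1 it is at 6.98 CPM with WT SI-2 1 next at 6.01 CPM.

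IRS1, the first of the docking proteins, was not called between the lines. Its values were 59.2 and 82.6 CPM in WT vehicle, 67.8 and 92.0 CPM in WT SI-2, 55.4 and 81.2 CPM in BR vehicle and 68.8 and 82.5 CPM in BR SI-2. The fold of BR over WT was 0.955 with an interval from 0.743 to 1.23 (adjusted p = 0.876, edgeR).

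IRS2, the second docking protein and a known target of FOXO factors, had the largest fitted difference of the 7 genes. It was at 17.7 and 31.8 CPM in WT vehicle and at 20.7 and 29.9 CPM in WT SI-2, against 16.3 and 16.0 CPM in BR vehicle and 19.1 and 18.9 CPM in BR SI-2. The replicate 2 libraries of WT stood above all others, the replicate 1 libraries of WT were close to the BR libraries, and WT vehicle 1 was below both BR SI-2 libraries, so that the lines overlapped. The fold of BR over WT was 0.703 with an interval from 0.532 to 0.929 (adjusted p = 0.252, edgeR) and did not pass the adjusted threshold. Under vehicle alone the fold was 0.653 (adjusted p = 0.967). Without WT vehicle 2 or without WT SI-2 2, IRS2 was no longer under 0.05 even unadjusted, and its log2 fold change over the omission of each library ran from -0.64 to -0.37.

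The ratio of the 2 substrates did not overlap between the lines. The FPKM ratio of IRS1 to IRS2 was 2.67 and 2.08 in WT under vehicle and 2.62 and 2.46 under SI-2, against 2.71 and 4.06 in BR under vehicle and 2.88 and 3.50 under SI-2. Every BR library lay above every WT library, although BR vehicle 1 (2.71) exceeded WT vehicle 1 (2.67) by little. The means were 3.29 ± 0.615 in BR and 2.46 ± 0.267 in WT, and the exact permutation test gave the smallest p it allows (p = 0.0286), which did not hold after adjustment over the 6 ratio tests (adjusted p = 0.171). The ratios were chosen after the levels had been seen. Between SI-2 and vehicle the ratio was 2.86 ± 0.457 and 2.88 ± 0.836 (exact permutation p = 0.943).

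GRB10, the inhibitory adaptor, varied more among libraries than by line. It was at 116 and 137 CPM in WT vehicle, 102 and 139 CPM in WT SI-2, 143 and 91.6 CPM in BR vehicle and 115 and 87.3 CPM in BR SI-2. In WT the replicate 2 library was the higher, and in BR it was the lower. The fold of BR over WT was 0.884 with an interval from 0.687 to 1.14 (adjusted p = 0.64, edgeR). Its log2 fold change went from -0.18 to -0.09 without BR SI-2 2 and to -0.34 without BR vehicle 1, where GRB10 was under an unadjusted p of 0.05 (edgeR). A list of 20 amino acid response genes, which cells raise when amino acids run short, summed to 4605 and 5602 CPM in WT vehicle, 3557 and 5397 CPM in WT SI-2, 4778 and 2572 CPM in BR vehicle and 3524 and 2457 CPM in BR SI-2. The 4 libraries in which GRB10 was highest were the 4 with the highest sums, and the 2 lowest were the same on both measures. The list was chosen with earlier results of these data known. How many of all genes share this order was not counted, and the part of this response in the GRB10 levels was not tested.

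**Figure D3:**
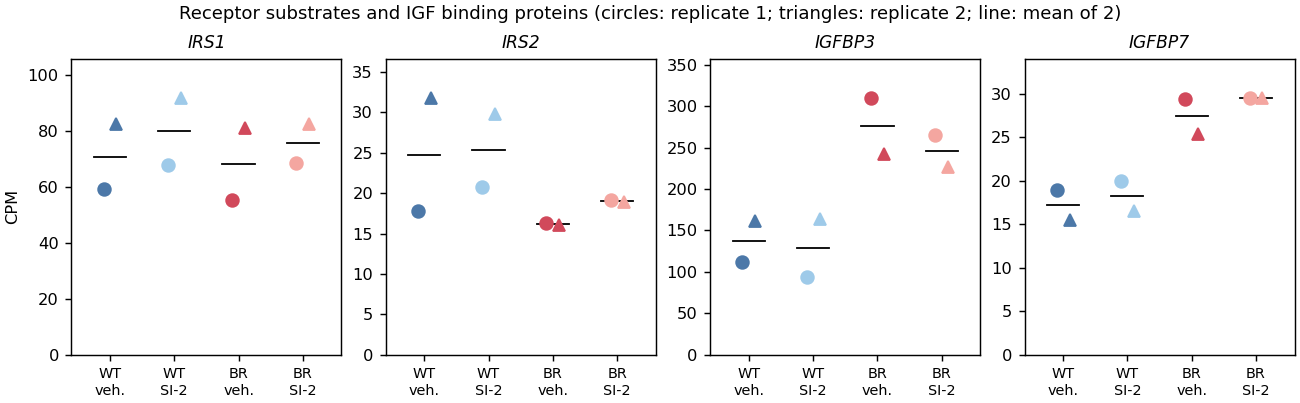
CPM of the substrates IRS1 and IRS2 and of the binding proteins IGFBP3 and IGFBP7 by condition, with circles for replicate 1, triangles for replicate 2 and a line at the mean of 2. IRS1 overlaps between the lines, and IRS2 is highest in the WT replicate 2 libraries (31.8 and 29.9 CPM). Both binding proteins are higher in all 4 BR libraries than in all 4 WT libraries, as are 3.79% of all genes.

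SI-2 left the tested genes without a detectable change in either line. Under vehicle alone, BR against WT gave 0 calls among the 7 genes and 0 of 13896 in all (0%), with 540 genes at an unadjusted p under 0.05 (3.89%) and 25 calls by DESeq2. SI-2 against vehicle in BR also gave 0 calls (0%), with 167 genes unadjusted (1.2%) and 3 calls by DESeq2. In WT, SI-2 gave 0 calls (0%), with 74 genes unadjusted (0.533%) and 0 calls by DESeq2. The mean of both lines gave 0 calls (0%), with 260 genes unadjusted (1.87%) and 2 calls by DESeq2. The difference of the SI-2 effect between the lines gave 0 calls (0%), with 74 genes unadjusted (0.533%) and 0 calls by DESeq2. Without BR SI-2 2, the genes at an unadjusted p under 0.05 were 494 for SI-2 in BR, 507 for the mean of both lines and 141 for the difference between the lines, of 14114 tested, with 0 calls in each. In each of these 5 comparisons, with and without that library, 0 of the 7 genes were under an unadjusted p of 0.05. With all libraries, 0 of them were called by DESeq2. Averaged over the lines, the fold of SI-2 over vehicle was 1.06 for IGF1R (interval 0.809 to 1.38), 0.990 for INSR (0.785 to 1.25), 1.32 for IGF1 (0.851 to 2.05), 1.03 for IGF2R (0.825 to 1.28), 1.12 for IRS1 (0.845 to 1.48), 1.09 for IRS2 (0.802 to 1.49) and 0.906 for GRB10 (0.683 to 1.20). Without BR SI-2 2, the averaged log2 fold change of IGF1 went from 0.40 to 0.11, that of IGF2R from 0.04 to -0.05 and that of GRB10 from -0.14 to -0.05. In BR alone, without that library, the SI-2 value of IGF1R went from 0.05 to -0.10 and that of INSR from 0.03 to -0.11. With 2 libraries per condition, changes within these intervals were not detectable. The interaction intervals were wider, and for IGF1R the SI-2 effect in BR over that in WT was 0.956, from 0.561 to 1.63.

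**Figure D4:**
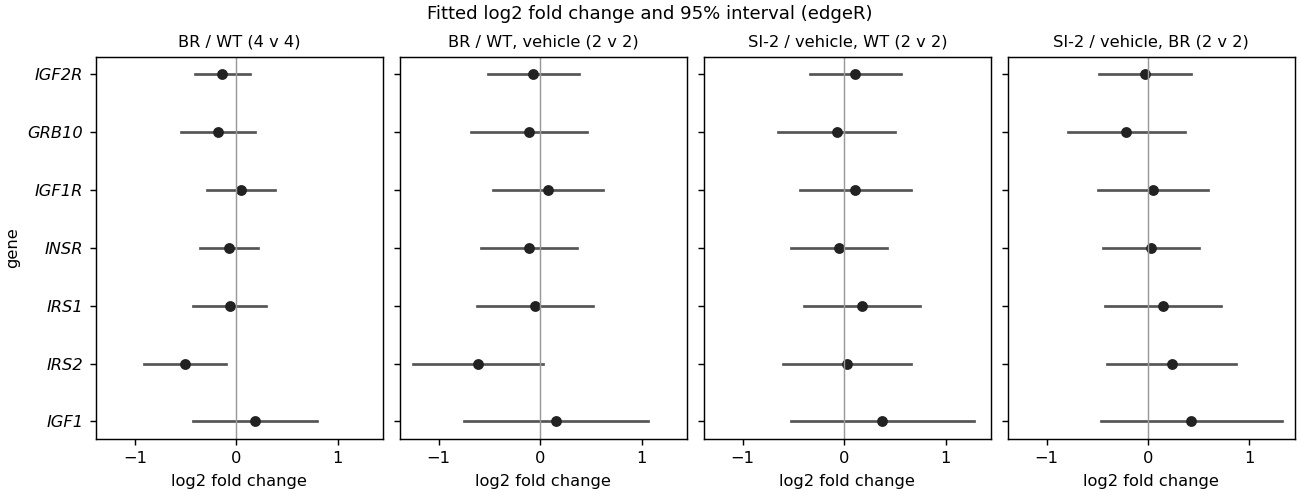
Fitted log2 fold change (points) and 95% interval (lines) of the 7 tested genes in 4 comparisons, with the number of libraries per side above each panel. All intervals shown include 0 except that of IRS2 in BR against WT with 4 libraries each, which runs from -0.91 to -0.11.

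Within each condition, 4 of the genes also differed between the libraries by their replicate number. This comparison was added after the levels had been seen, and the labels do not say what the number stands for. IGF1R was 116 ± 8.08 CPM in the 4 replicate 1 libraries and 154 ± 7.47 CPM in the 4 replicate 2 libraries. INSR was 90.3 ± 2.32 and 112 ± 8.80 CPM, IGF2R 370 ± 33.6 and 458 ± 22.1 CPM, and IRS1 62.8 ± 6.57 and 84.6 ± 4.98 CPM. These 4 genes were higher in every replicate 2 library than in every replicate 1 library, 4 of the 7 tested, where 5.89% of all genes were higher without overlap and 6.08% lower. The fold of replicate 2 over replicate 1 was 1.33 for IGF1R, 1.24 for INSR, 1.24 for IGF2R and 1.35 for IRS1. None of them passed the adjusted threshold in edgeR (adjusted p = 0.0558, 0.102, 0.128 and 0.0647), with 125 of 13520 genes called (0.925%) and 0 without BR SI-2 2, while DESeq2 called all 4. At an unadjusted p under 0.05, the 4 genes passed against 16.9% of all genes. IRS2 (fold 1.31, adjusted p = 0.382), IGF1 (1.09, adjusted p = 0.868) and GRB10 (0.959, adjusted p = 0.902) overlapped between the numbers. The median log2 fold change was 0.32 over the 7 genes and -0.01 over all genes tested.

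**Figure D5:**
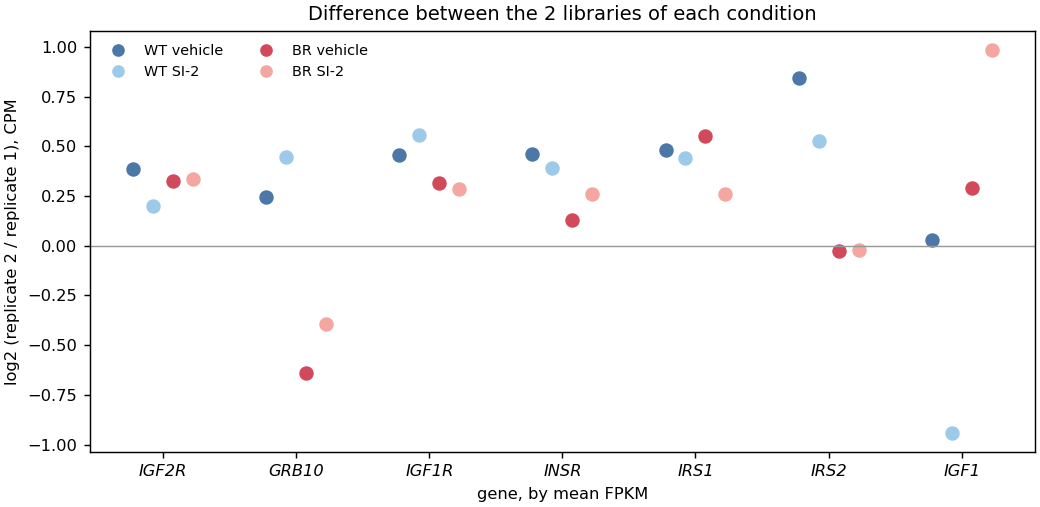
Log2 ratio of the replicate 2 to the replicate 1 library in CPM for the 7 tested genes, 1 point per condition. All 4 points lie above 0 for IGF2R, IGF1R, INSR and IRS1, the points of GRB10 and IRS2 lie above 0 in WT and below 0 in BR, and those of IGF1 lie on both sides.

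The other genes of the pathway were taken as lists, chosen with earlier results of these data known, and described by their counts in BR against WT. Over all 13520 genes tested, 0.362% were called and 14.4% were at an unadjusted p under 0.05 (edgeR). At that share of calls, 0 calls in a list of this size say little. In the unadjusted count were 0 of 15 ligands, receptors and adaptors, 4 of 5 binding proteins and regulators and 1 of 28 cascade genes. Of the other lists, 6 of 21 brakes on signalling, 5 of 17 FOXO targets and 7 of 16 amino acid response genes were in it. Of 19 other ligands, receptors and receptor adaptors, 15 were tested and 0 were called, with 7 higher and 8 lower in BR and a median log2 fold change of -0.00410. SH2B2, an adaptor of the activated insulin receptor, had the largest value (0.44, SE 0.217, adjusted p = 0.387), and its level was highest in BR SI-2 1 (274 CPM against 159 to 175 CPM in the other BR libraries). GRB2, which links receptors to RAS, was at 0.22 (adjusted p = 0.395), and SHC1, another link to RAS and with SH2B2 the highest of the list in FPKM, at -0.13 (adjusted p = 0.733). IRS4 and INSRR, a substrate and an orphan relative of the receptors, were below 0.21 CPM in all libraries.

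Of 14 IGF binding proteins and their regulators, 5 passed the filter, 1 of which rose in BR, and 0 fell. The median log2 fold change of the 5 was 0.69, the value of IGFBP7 itself, and 0.32 over 6 tested genes without BR SI-2 2. IGFBP4 passed the filter through its BR libraries, with 12 to 225 counts there against 1 to 11 in WT. With so few genes, these medians are not read as a result about the list. IGFBP7, a secreted protein with low affinity for IGFs, was at 18.9 and 15.5 CPM in WT vehicle, 20.04 and 16.5 CPM in WT SI-2, 29.5 and 25.4 CPM in BR vehicle and 29.5 and 29.6 CPM in BR SI-2. All BR libraries were above all WT libraries, as they were for 3.79% of all genes, with a log2 fold change of 0.69 (SE 0.115, adjusted p = 0.0322, edgeR). The direction held on leaving out each library, but the adjusted p rose above 0.05 in 7 of those 8 fits, being 0.121 without BR SI-2 2, and it was 0.143 with the 4 conditions as terms. IGFBP3, the main IGF carrier in serum, was at 112 and 162 CPM in WT vehicle, 94.3 and 163 CPM in WT SI-2, 310 and 242 CPM in BR vehicle and 265 and 227 CPM in BR SI-2. The lines did not overlap, and the fold was 1.97 (log2 0.98, SE 0.181), but the adjusted p of 0.0586 missed the threshold in edgeR. DESeq2 called it (adjusted p = 8.09e-05). In edgeR, the adjusted p of IGFBP3 was 0.176 with the 4 conditions as terms. On leaving out each library it ran from 0.0461 to 0.131. STC2, a relative of STC1 with the same protease targets, was at -0.61 (adjusted p = 0.252), from 145 to 290 CPM in WT and from 120 to 191 CPM in BR.

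No gene of the cascade below the receptors was called between the lines, where 0.362% of all genes were called. Of 29 genes of the PI3K, AKT and mTOR cascade, 28 were tested and 0 were called, 14 being higher and 14 lower, with a median log2 fold change of 0.00352. PIK3R3, a regulatory subunit of PI3K, had a value of 0.57 (SE 0.281, adjusted p = 0.385), and EIF4EBP1, a repressor of translation that mTOR inactivates, one of -0.52 (SE 0.313, adjusted p = 0.472). EIF4EBP1 was at 248, 259, 142 and 260 CPM in WT and at 278, 104, 153 and 99.8 CPM in BR, the vehicle libraries first. MLST8, a subunit shared by both mTOR complexes, was at -0.12 (adjusted p = 0.672).

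Of 25 brakes on receptor and PI3K signalling, 21 were tested and 0 were called, with 8 higher and 13 lower in BR and a median log2 fold change of -0.07. DEPTOR, an mTOR inhibitor known for its high level in a subset of myelomas, had the highest FPKM of the list, from 419 to 683, and a log2 fold change of 0.18 (adjusted p = 0.604). DDIT4, a stress-induced mTOR inhibitor, ranged from 264 to 830 CPM in WT and from 213 to 460 CPM in BR (log2 fold change -0.89, SE 0.336, adjusted p = 0.273). TRIB3, a stress-induced inhibitor of AKT, was at 116 to 198 CPM in WT and 84.4 to 117 CPM in BR (log2 fold change -0.75, SE 0.176, adjusted p = 0.118), and DESeq2 called it (adjusted p = 0.00635). In edgeR, its adjusted p was 0.294 with the 4 conditions as terms. On leaving out each library it ran from 0.032 to 0.359.

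A list of 21 FOXO target genes was not split by whether FOXO factors raise or lower the gene. Of these, 17 were tested, 0 rose and 1 fell in BR, with a median log2 fold change of 0.08. The gene that fell was CDKN1A, the cell cycle inhibitor p21, which is also a target of p53. It was at 79.8 and 81.0 CPM in WT vehicle, 61.4 and 81.0 CPM in WT SI-2, 31.9 and 36.9 CPM in BR vehicle and 38.2 and 34.3 CPM in BR SI-2. The lines were far apart, with a log2 fold change of -1.10 (SE 0.116, adjusted p = 0.00239, edgeR), and the call held on leaving out each library, at an adjusted p of 0.0118 without BR SI-2 2. FBXO32, a muscle atrophy ubiquitin ligase, was at -0.70 (adjusted p = 0.234). CDKN1B, the inhibitor p27, and CCND2, cyclin D2, the most abundant of the list, were at -0.03 and 0.08 (adjusted p = 0.922 and 0.774).

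Of the amino acid response genes, 16 of 20 were tested and all 16 had lower fitted values in BR, against 6644 of all 13520 genes. Their median log2 fold change was -0.49. Without BR SI-2 2, 16 of 17 were lower and 1 was higher, with a median of -0.42. The sum was not lower in every BR library: BR vehicle 1 held 4778 CPM, against 4605 CPM in WT vehicle 1 and 3557 CPM in WT SI-2 1. Of the 16 genes, 1 fell past the threshold, INHBE, an activin subunit made under stress, which is named here because it was the only call of its list. It was at 102 and 156 CPM in WT vehicle, 76.7 and 136 CPM in WT SI-2, 55.6 and 32.8 CPM in BR vehicle and 38.6 and 27.7 CPM in BR SI-2 (log2 fold change -1.61, SE 0.251, adjusted p = 0.0237, edgeR). Without BR SI-2 2 its adjusted p was 0.0628, with the 4 conditions as terms it was 0.0638, and it was no longer called in 5 of the 8 fits that each left out 1 library. In the other 5 comparisons by line under vehicle and by SI-2, 0 genes of any of these pathway lists were called.

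As a description, the genes whose log2 CPM followed 4 of the genes most closely over the 8 libraries were sought among 9358 others with a mean of at least 10 CPM. The closest to IGF1R were RAI1, PHC2 and MTSS1L (Pearson r = 0.975, 0.974 and 0.969), and the closest to INSR were ZNF704, SF3B6 and EIF6 (r = 0.989, 0.986 and 0.984). All 6 were higher in each replicate 2 library than in the replicate 1 library of the same condition, as were IGF1R and INSR. The 6 were picked for their likeness to those genes, so this is no separate evidence of a difference by replicate number. IRS2 was followed by ARHGAP23, C8orf37 and C2orf42 (r = 0.978, 0.976 and 0.970), and GRB10 by TADA3, ITGB7 and PAPSS1 (r = 0.990, 0.989 and 0.986). The points share their libraries and only 8 were available, so that high values arise readily among so many genes.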

How the data were processed

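RNA from 8 LP-1 libraries (4 conditions of 2) was extracted with Trizol and sequenced. The submitters' processing notes name BWA, Bowtie2, RSEM and the build hg19, with no versions. The authors deposited estimated counts, from RSEM, and FPKM values, normalised by them to transcript length and sequenced reads, per gene and per transcript. Their 8 pooled average columns per table and their tables of fold changes and p-values were not used. Of 18564 genes, 18267 NCBI identifiers were found in RefSeq, and 25 symbols had been turned into dates. Coordinates and the exon sequence of INSR came from GENCODE v29 on GRCh38, another build than that of the counts, and no coordinate was converted.

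Estimated counts were rounded, filtered (filterByExpr), scaled by TMM and tested with edgeR 4.0.16 (quasi-likelihood, limma 3.58.1, R 4.3.3) over 13520 genes for 2 groups of 4 libraries and 13896 genes for 4 conditions, with Benjamini-Hochberg adjustment and a threshold of 0.05. CPM are estimated counts over the TMM-scaled library size. Totals of 17997771 to 18570027 counts per library, with a biological coefficient of variation of 0.179, set the precision. Ratios and shares were compared by exact two-sided permutation tests (70 arrangements). DESeq2 1.42.0, RLE scaling, no filter, a replicate block, condition terms, fits of only the libraries compared and the omission of each library were the alternatives. Figures were drawn with matplotlib 3.10.9 in Python 3.11.15. Besides the 8 genes, the text names, from each pathway list, every called gene, the 2 with the largest change at a mean of at least 1 CPM and the 2 with the highest FPKM, together with NCOA3 and the 3 closest genes to each of IGF1R, INSR, IRS2 and GRB10. IGFBP2, IGFBP5, STC1, IRS4, INSRR, SLAMF7, COL1A1, COL3A1 and INHBE fall outside this rule and were chosen after their values were seen. The genes and lists were chosen with earlier results of these data known.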

Additional observations from a re-analysis of the deposited data

Results flagged for a closer look

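Within each set of 4 libraries of a line or of an agent, the highest and the lowest value of 26 genes were compared with the rest by Dixon's ratio at its critical value. Of 104 sets, 14 passed. The nominal rate of about 1 in 20 cannot be set against this count. The sets by line and by agent share libraries, and some of the genes were named for their large change.

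Of the ligands, IGF1 stood apart at 6.01 CPM in WT SI-2 1 among the WT libraries (others 3.13 to 3.55 CPM) and at 4.27 CPM in BR vehicle 2 among the vehicle libraries (others 3.48 to 3.55 CPM). IGF2 stood apart at 5.20 CPM in BR SI-2 2, both among the BR and among the SI-2 libraries, and at 0.0569 CPM in WT vehicle 1 among vehicle libraries that were otherwise at 0, a value that rests on 1 count. IGFBP4 stood apart at 11.7 CPM in BR SI-2 2 in the same 2 sets. Only this library lifted its mean over the 1 CPM needed for a gene to be named by its change.

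Of the adaptors, IRS2 stood apart at 31.8 CPM in WT vehicle 2 among the vehicle libraries (others 16.0 to 17.7 CPM) and at 29.9 CPM in WT SI-2 2 among the SI-2 libraries (others 18.9 to 20.7 CPM). SH2B2 was at 274 CPM in BR SI-2 1 (other BR libraries 159 to 175 CPM). CDKN1B was at 282 CPM in the same library (others 216 to 223 CPM).

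In WT SI-2 1, EIF4EBP1 was low at 142 CPM (other WT libraries 248 to 260 CPM) and CDKN1A at 61.4 CPM (others 79.8 to 81.0 CPM). IGFBP7 was at 25.4 CPM in BR vehicle 2, below the other BR libraries at 29.5 to 29.6 CPM.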

How the results depend on the processing

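Of the 7 tested genes, 0 were called in the 6 comparisons by line and by SI-2 under every alternative listed above, except that IGF2 entered the test and was called for SI-2 in BR without BR SI-2 1, which left BR SI-2 2 alone (0 to 1 called over the omissions). With 2 libraries per condition, a sample left alone is assumed to vary like the others. Over all genes, the 49 called in BR against WT became 414 with DESeq2 and 18 with condition terms. On omitting a library they ranged from 21 to 125, being 27 without WT vehicle 2, 125 without WT SI-2 1, 21 without WT SI-2 2, 86 without BR vehicle 1, 24 without BR vehicle 2, 29 without BR SI-2 1 and 32 without BR SI-2 2. Under vehicle, 0 became 3 with no filter, 25 with DESeq2 and 1 with only the 4 libraries compared. For SI-2 in BR, 0 became 3 with DESeq2 and ranged from 0 to 67 on omitting a library, the highest without BR SI-2 1. For the mean SI-2 effect, 0 became 2 with no filter and 2 with DESeq2, and ranged from 0 to 1. For the replicate comparison, 125 became 765 with DESeq2, 4 of the 7 genes included, and 0 with condition terms, and ranged from 0 to 93 on omitting a library, being 93 without WT SI-2 1, 1 without BR vehicle 2 and 0 without each of the others. The causes were not tested.

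With the replicate number as a block, 155 genes were called in BR against WT, the 49 among them, and 1 under vehicle; IGFBP3 passed (adjusted p = 0.0388), and no call of the 7 genes changed. The correlations of same-numbered deviations ran from -0.0907 to 0.379 and the labels give no shared culture, so the number was not treated as a pairing.

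Fitted values of uncalled genes changed sign on omitting single libraries. In BR against WT with 4 libraries each, the log2 fold change ranged for CCND2 from -0.00694 to 0.16, CDKN1B from -0.12 to 0.0129, IGF1 from -0.10 to 0.44, IGF1R from -0.0419 to 0.17, INSR from -0.14 to 0.0176, IRS1 from -0.16 to 0.0459 and NCOA3 from -0.0247 to 0.15. In BR against WT under vehicle, the log2 fold change ranged for GRB10 from -0.45 to 0.17, IGF1 from -0.000532 to 0.31, IGF1R from -0.12 to 0.34, IGF2R from -0.24 to 0.15, INSR from -0.32 to 0.15 and IRS1 from -0.36 to 0.22. For SI-2 in BR, the log2 fold change ranged for GRB10 from -0.50 to 0.13, IGF1 from -0.15 to 0.83, IGF1R from -0.11 to 0.21, IGF2R from -0.20 to 0.14, INSR from -0.11 to 0.14 and IRS1 from -0.11 to 0.45. For SI-2 in WT, the log2 fold change ranged for GRB10 from -0.31 to 0.13, IGF1 from -0.17 to 0.78, IGF1R from -0.19 to 0.36, IGF2R from -0.0695 to 0.32, INSR from -0.27 to 0.20, IRS1 from -0.0597 to 0.44 and IRS2 from -0.33 to 0.51. For the mean SI-2 effect, the log2 fold change ranged for GRB10 from -0.29 to 0.0274, IGF1R from -0.0759 to 0.20, IGF2R from -0.0527 to 0.14, INSR from -0.12 to 0.11 and IRS2 from -0.0547 to 0.37. For the difference of the SI-2 effect, the log2 fold change ranged for GRB10 from -0.43 to 0.20, IGF1 from -0.53 to 0.59, IGF1R from -0.32 to 0.23, IGF2R from -0.36 to 0.0335, INSR from -0.18 to 0.28, IRS1 from -0.30 to 0.27 and IRS2 from -0.29 to 0.55. For replicate 2 against 1, the log2 fold change ranged for GRB10 from -0.16 to 0.0521 and IGF1 from -0.17 to 0.36. The difference of the IRS1 to IRS2 ratio by agent ranged from -0.28 to 0.38, and that of the INSR long-form share by agent from -3 to 3.01 percentage points, the highest without BR vehicle 2.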
